A study of Mus musculus with 20 samples.

Results

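The phase II conjugation enzymes are the transferases that attach glucuronic acid, glutathione or sulfate to drugs, pollutants, bilirubin, hormones and bile acids. Their members were taken by gene symbol from the liver RNA-seq count table: the UDP-glucuronosyltransferases (UGT) of the *Ugt1a*, *Ugt2a*, *Ugt2b* and *Ugt3a* groups, the glutathione S-transferases (GST) of the alpha, kappa, mu, omega, pi, theta and zeta classes, and the cytosolic sulfotransferases (SULT). Symbols with a -ps suffix were left out. A gene also needed at least 10 counts in at least 5 of the 20 livers. This gave 46 members of 64 matching symbols, among 50559 genes in the table: 18 of 21 UGT, 20 of 22 GST and 8 of 21 SULT symbols. Just inside the count rule, *Sult2a7* had 10 or more counts in 8 livers, and just outside it *Sult2a2* reached that in 2 livers and *Gsto2*, *Sult2a1* and *Sult2b1* in 1 liver each. The other 14 symbols left out had no liver with 10 counts, and they included *Sult2a3*, *Sult2a4*, *Sult2a5*, *Sult2a6*, *Sult3a1* and *Sult3a2*.

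Liver RNA was sequenced in 20 libraries from mice with floxed *Cideb* on a C57BL/6 background, 5 libraries in each of 4 groups, each called a liver here. CIDEB is a lipid droplet and lipoprotein protein of hepatocytes, and the study asked how its loss changes fatty liver on different diets. WT livers came from *Cideb* fl/fl mice given an adeno-associated virus with the hepatocyte promoter TBG driving GFP (AAV-TBG-GFP), and KO livers from the same floxed mice given AAV-TBG-Cre, in both cases at 6 weeks of age. Each genotype was fed either a Western diet (WD), rich in sugar, fat and cholesterol, or CDA-HFD, a high-fat diet that lacks choline and supplies amino acids in place of protein and that produces steatohepatitis. The study's methods describe CDA-HFD as deficient in methionine as well as in choline. The labels give 3 months of either diet, whereas the study's methods give 24 weeks for WD and 12 weeks for CDA-HFD. In comparisons between diets, diet cannot be told apart from feeding time and the age that goes with it. Nor can it be told apart from anything else that differed between the feeding experiments. Every liver carried the floxed allele and a virus, and because TBG drives Cre in hepatocytes, the other cells of a KO liver keep *Cideb*.

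UGTs sit in the membrane of the endoplasmic reticulum and use UDP-glucuronic acid, GSTs are mostly soluble and use glutathione, and SULTs are soluble and use the activated sulfate donor PAPS. Hepatocytes carry most of this capacity in the body, and the conjugates leave the cell through ABC transporters into bile or blood. Many of the genes are known to respond to the receptors AHR, PXR and CAR or to the oxidative stress factor NRF2, and several differ between male and female mice.

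Each library held between 11697049 and 16827147 gene-assigned reads, of which the 46 members took 0.464% to 0.716%. *Cideb* read 4.78, 6.49, 7.62, 5.13 and 6.31 CPM (read counts scaled to library size with TMM factors over all 20 livers) in WT livers on WD and 0, 0.393, 0, 0.154 and 0.236 CPM in KO livers, and 2.19, 3.59, 2.76, 3.82 and 2.86 against 0.210, 0, 0.397, 0.147 and 0.0586 CPM on CDA-HFD. The groups did not overlap on either diet, with a log2 fold change of -5.12 (SE 0.43, adjusted p = 0.000766) on WD and -4.19 (SE 0.46, adjusted p = 0.00268) on CDA-HFD in edgeR's quasi-likelihood test. KO liver 5 on CDA-HFD had as little *Cideb* as the other KO livers but stood apart: on the first principal component of the CDA-HFD livers (61.3% of the variance) it lay at -41.4, among the WT livers at -63.3 to -7.53 and away from the other 4 KO livers at 42.9 to 66.1. Counts on CDA-HFD, and the values of members whose call changed, are therefore given with and without it. That liver was singled out by its expression in these same data, so leaving it out favours a wider difference between genotypes. Over all genes, those with an adjusted p under 0.05 between genotypes went from 2664 of 17204 to 7201 of 17411 without it. All values, p-values and calls without KO liver 5 are descriptions and add no support. Hepatocyte markers, such as *Alb* and *Ttr*, were abundant in all livers. *Xist* read at most 2.12 CPM and 4 Y-linked genes at least 24.4 CPM in every library, and the labels give no sex.

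The members lie in clusters of near relatives. The *Ugt1a* genes are alternative first exons that splice to 1 shared set of later exons on chromosome 1, from *Ugt1a9* at chr1:88070800-88218997 to *Ugt1a1* at chr1:88211959-88218997 (GRCm38, GENCODE M21 annotation). Since reads on the shared exons cannot be assigned to 1 of them, *Ugt1a* counts rest on the unique stretch, which held 25.2% (*Ugt1a6b*) to 48.8% (*Ugt1a6a*) of the 75-base words of each gene's transcripts. The *Ugt2a* and *Ugt2b* genes and *Sult1b1*, *Sult1d1* and *Sult1e1* lie on chromosome 5, the mu-class *Gstm* genes on chromosome 3, the theta-class *Gstt* genes on chromosome 10 and the pi-class *Gstp* genes on chromosome 19. Counts of near-identical pairs are uncertain: 15.3% of the words of *Gsta1*, 49.9% of *Gstp2*, 63.4% of *Gsta2*, 69.6% of *Ugt2b5* and 70.8% of *Gstp1* were unique to the gene.

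Levels differed widely between members. Per kilobase of unique sequence, *Gstm1*, a mu-class GST, was the most abundant member at 894 ± 106 CPM per kb in WT livers on WD (SD, n = 5). It was followed by *Ugt2b5* at 333 ± 27.9, *Ugt1a1*, the bilirubin-conjugating UGT, at 303 ± 62.0, *Ugt2b36* at 221 ± 18.9 and *Gsta3*, the alpha-class GST known for detoxifying aflatoxin epoxide in mice, at 204 ± 49.9 CPM per kb. *Ugt2b5* and *Ugt1a1* overlapped within their SD, as did *Ugt2b36* and *Gsta3*, while *Gstm1* stood above all of them. This order depends on the length used. *Ugt1a1* had 910 unique 75-base words, but only 385 bases of its exons were free of exons of other genes. Among SULTs, *Sult1a1*, which sulfates phenols, had 106 ± 29.9 and *Sult2a8*, which sulfates bile acids in mice, 88.9 ± 49.1 CPM per kb, again within their SD of each other.

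Promoter stretches are shown for 3 GST members. The 250 bases before the annotated start were searched on both strands for the 41 of 46 members that matched the RefSeq promoter table (50 windows, GRCm38.p6), beside all 32851 promoter windows of that length. The core letters of the antioxidant response element bound by NRF2, TGACNNNGC, were in 3 member windows and in 10.2% of all windows. The matches lay before RefSeq starts of *Gsta3* (chr1:21240439-21240497, plus strand), *Gstm5* (chr3:107895787-107895845, plus strand) and *Gstm7* (chr3:107931710-107931768, minus strand). By GENCODE M21 the *Gstm7* stretch lies inside the gene (chr3:107926334-107931817, minus strand), before an alternative RefSeq start. These 3 stretches are printed, with the match in capitals, because between diets in WT livers the log2 fold changes of their genes differ in sign, at -1.02, 1.00 and -1.04.
Gsta3: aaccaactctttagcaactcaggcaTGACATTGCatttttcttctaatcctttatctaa
Gstm5: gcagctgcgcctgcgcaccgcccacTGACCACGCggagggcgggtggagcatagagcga
Gstm7: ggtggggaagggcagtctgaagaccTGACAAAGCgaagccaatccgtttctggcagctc
The AHR core GCGTG was in 10 member windows (28.2% of all windows), CCAAT in 24 (33.8%) and TATAAA in 6 (12.4%). These are matches of letters and no binding was measured.

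On CDA-HFD, the members that differed between genotypes were all higher in KO livers. Of 45 members tested, 12 rose in KO livers and 0 fell, where 8.19% of all 17204 genes tested rose and 7.29% fell. They were 4 of 18 UGTs (*Ugt1a9*, *Ugt1a8*, *Ugt2a3* and *Ugt2b36*), 6 of 20 GSTs (*Gstt3*, *Gsta3*, *Gstm4*, *Gstt1*, *Gstm1* and *Gstp1*) and 2 of 7 SULTs (*Sult1b1* and *Sult1d1*). The median log2 fold change was 0.55 over the members and 0.00 over all genes, and 40 of 45 members had a positive value. Without KO liver 5, 30 members rose (14 UGTs, 11 GSTs and 5 SULTs) and 1, *Gstm5*, fell, where 19.6% of 17411 genes rose and 21.8% fell.

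The number of calls depended on single livers. Leaving out WT liver 1, 3 or 5 on CDA-HFD left 3, 2 and 2 members past the threshold, and leaving out KO liver 1, 2, 3 or 4 left 2, 4, 2 and 4. Calls over all genes fell too, from 2664 of 17204 to 1352 of 17443, 789 of 17282 and 913 of 17320 without those WT livers. Without those KO livers they were 709 of 17623, 986 of 17438, 736 of 17463 and 1581 of 17468. Whether the drop was larger among the members than over all genes was not tested. *Ugt1a9* and *Gstt3* passed in all 10 fits with 1 liver left out, *Gsta3* in 5 of them, and the other 9 members in 1 to 3. KO liver 5 lay inside the range of the WT livers on CDA-HFD for 30 of 46 members, above it for 13 and below it for 3, whereas the other 4 KO livers all lay above that range for 23 members and all below it for 1. These range counts were made for the members only, so no share over all genes stands beside them. Setting aside the KO liver that resembled WT also favours such a separation, so the counts are no result about the members. In bulk tissue, fewer cells of a type and less RNA per cell cannot be told apart. The summed CPM of 20 hepatocyte markers ran from 46938 to 96533 in WT and from 50600.1 to 134063 in KO livers on CDA-HFD, where KO liver 5 was the lowest at 50600.1. Their median log2 fold change was 0.59, with 3 of 20 higher and 0 lower, a median close to that of the members, and 10 were higher and 0 lower without KO liver 5. The part of hepatocyte content in these differences was not tested.

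**Figure D1:**
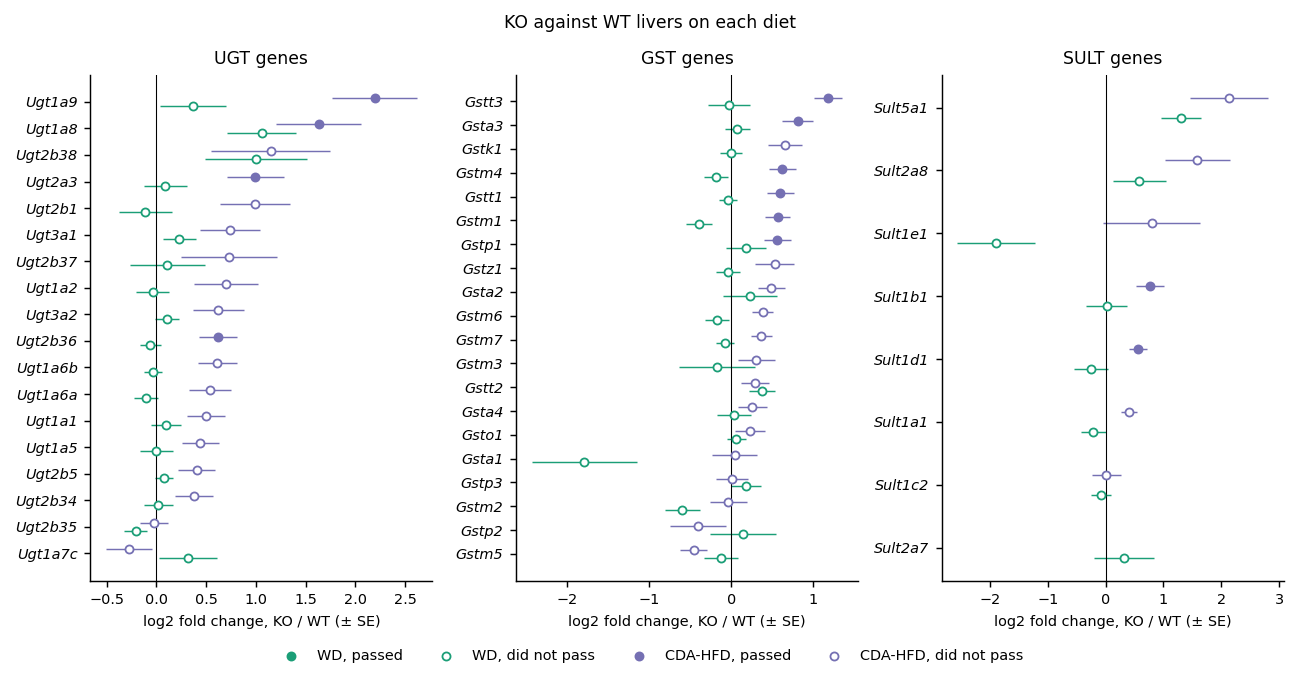
Log2 fold change of KO against WT livers (x axis, bars ± SE from edgeR, 5 livers a group) for each UGT, GST and SULT member (y axis), on WD in green and on CDA-HFD in purple, with filled points for members past an adjusted p of 0.05. On CDA-HFD, 12 of 45 members are filled and all 12 lie to the right of 0, and on WD no point is filled. *Sult2a7* has no purple point because it was not tested on CDA-HFD.

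Among UGTs, *Ugt1a9*, whose enzyme conjugates phenols, differed most on CDA-HFD. *Ugt1a9* read 5.37, 6.41, 8.84, 8.72 and 4.91 CPM in WT livers 1 to 5 on CDA-HFD and 37.9, 28.8, 34.2, 50.1 and 6.39 CPM in KO livers 1 to 5. KO livers 1 to 4 stood above every WT liver, and KO liver 5 lay within the WT range. The log2 fold change was 2.19 (SE 0.43, adjusted p = 0.0137), and without KO liver 5 it was 2.46 (SE 0.20, adjusted p = 5.50e-05). On WD, *Ugt1a9* read 20.1, 30.2, 8.38, 13.7 and 13.9 CPM in WT and 22.7, 27.4, 30.3, 10.2 and 20.6 CPM in KO livers, which overlapped. *Ugt1a8*, a neighbouring first exon of low level, read 0.437, 0.282, 0.828, 0.872 and 0.429 CPM in WT and 1.89, 2.02, 2.19, 2.43 and 0.469 CPM in KO livers on CDA-HFD, again with KO liver 5 alone inside the WT range. Its log2 fold change was 1.63 (SE 0.43, adjusted p = 0.031), or 1.88 (SE 0.29, adjusted p = 0.000741) without KO liver 5. On WD, *Ugt1a8* read 1.33, 2.39, 1.22, 0.690 and 0.734 CPM in WT and 2.73, 1.73, 4.25, 2.15 and 2.52 CPM in KO livers, with 1 WT liver inside the KO range, and its log2 fold change of 1.06 (SE 0.35, adjusted p = 0.319) did not pass.

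*Ugt2a3* read 47.7, 109, 72.3, 115 and 52.4 CPM in WT and 151, 128, 211, 205 and 96.9 CPM in KO livers on CDA-HFD, and 160.2, 165, 288, 238 and 193 against 187, 229, 144, 329 and 222 CPM on WD. On CDA-HFD the 4 other KO livers stood above all WT livers while KO liver 5 did not. The log2 fold change was 1.00 (SE 0.29, adjusted p = 0.0413), or 1.13 (SE 0.27, adjusted p = 0.00627) without that liver. *Ugt2b36*, one of the abundant UGT2B enzymes that conjugate steroids and drugs, read 222, 325, 258, 337 and 192 CPM in WT and 403, 399, 444, 521 and 286 CPM in KO livers on CDA-HFD, and 419.8, 460.5, 503, 518 and 449.7 against 454, 475, 364, 519.6 and 438 CPM on WD. KO liver 5 again lay within the WT range on CDA-HFD and the other 4 above it. Its log2 fold change was 0.62 (SE 0.19, adjusted p = 0.0491), or 0.72 (SE 0.17, adjusted p = 0.00626) without KO liver 5.

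*Ugt2b5* and *Ugt1a1*, highest of the UGTs per kilobase of unique sequence, did not pass with all livers on CDA-HFD. *Ugt1a1* read 138, 185, 178, 200.01 and 104 CPM in WT and 218, 224, 243, 294 and 162 CPM in KO livers on CDA-HFD, and 211, 229, 349.6, 299 and 293 against 262, 268, 275, 377 and 292 CPM on WD. Its log2 fold change on CDA-HFD was 0.50 (SE 0.19, adjusted p = 0.0945), or 0.60 (SE 0.18, adjusted p = 0.0196) without KO liver 5. *Ugt2b5* read 232, 384, 347, 353 and 237 CPM in WT and 418, 448, 382, 518 and 295 CPM in KO livers on CDA-HFD, and 377, 386, 433, 461 and 412 against 434, 487, 412, 449.8 and 391 CPM on WD. The groups overlapped, with a log2 fold change of 0.40 (SE 0.19, adjusted p = 0.143) on CDA-HFD, or 0.50 (SE 0.17, adjusted p = 0.034) without KO liver 5. *Ugt1a6b*, which with its twin *Ugt1a6a* conjugates planar phenols, and *Ugt2b1* are given per liver with the diet comparison. On CDA-HFD, *Ugt1a6b* had 0.61 (SE 0.19, adjusted p = 0.0527), just short of the threshold, and *Ugt2b1* had 0.99 (SE 0.35, adjusted p = 0.0742). *Ugt3a1* and *Ugt3a2*, which use sugars other than glucuronic acid, had 0.74 (adjusted p = 0.111) and 0.62 (adjusted p = 0.108). Without KO liver 5 all 4 passed, at 0.73 (adjusted p = 0.00537), 1.19 (adjusted p = 0.00487), 0.91 (adjusted p = 0.0146) and 0.77 (adjusted p = 0.0135). *Ugt1a2*, *Ugt1a5*, *Ugt1a6a* and *Ugt2b34* had 0.70 (adjusted p = 0.143), 0.44 (adjusted p = 0.122), 0.54 (adjusted p = 0.0987) and 0.37 (adjusted p = 0.185) with all livers. They passed without KO liver 5, at 0.91 (adjusted p = 0.00851), 0.55 (adjusted p = 0.0195), 0.67 (adjusted p = 0.0106) and 0.49 (adjusted p = 0.0279). Among UGTs, only *Ugt1a7c* at -0.28 (adjusted p = 0.412) and *Ugt2b35* at -0.02 (adjusted p = 0.915) had values below 0 with all livers.

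The mix of *Ugt1a* first exons is given as a share of reads. *Ugt1a1* took 59.8% ± 3.85 (SD, n = 5) of the reads counted on the 8 *Ugt1a* members in WT livers on WD, 61.2% ± 4.54 in KO livers on WD, 65.3% ± 5.12 in WT and 61.7% ± 3.41 in KO livers on CDA-HFD. These shares overlapped within their SD. *Ugt1a9* took 2.79% ± 0.450 in WT and 7.92% ± 3.15 in KO livers on CDA-HFD, with KO liver 5 at 2.64% and the others at 7.81% to 10.5%. *Ugt1a5* took 12.5% ± 1.82 and 12.2% ± 1.71 on WD, and 6.03% ± 1.54 and 5.37% ± 0.642 on CDA-HFD, in WT and KO livers. These shares are descriptions of the counted reads and were not tested.

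Among GSTs, 6 members rose on CDA-HFD, from the alpha, mu, pi and theta classes. Groups did not overlap for 4 of 45 members, all of them higher in KO and all GSTs (*Gstt3*, *Gstm4*, *Gstt1* and *Gstm1*), and 4.55% of all genes were higher in KO without overlap. *Gstt3*, a theta-class GST, read 11.9, 10.4, 11.1, 11.9 and 9.0 CPM in WT and 25.2, 17.6, 33.6, 20.2 and 26.7 CPM in KO livers on CDA-HFD. All 5 KO livers, KO liver 5 included, stood above the highest WT liver. The log2 fold change was 1.18 (SE 0.17, adjusted p = 0.00733), or 1.15 (SE 0.18, adjusted p = 0.000731) without KO liver 5. With all livers, the exact two-sided permutation p was 0.00794, the smallest that 5 livers against 5 allow. It follows from the lack of overlap. On WD, *Gstt3* read 42.2, 56.1, 106, 92.7 and 51.8 CPM in WT and 50.6, 49.9, 75.3, 82.6 and 83.0 CPM in KO livers, which overlapped. Its neighbour *Gstt1*, which conjugates small halogenated compounds, read 58.9 to 100.4 CPM in WT and 101 to 158 CPM in KO livers on CDA-HFD, with a log2 fold change of 0.60 (SE 0.16, adjusted p = 0.0356), or 0.67 (adjusted p = 0.00683) without KO liver 5. *Gstt2*, the other theta-class member, had 0.29 (adjusted p = 0.25).

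*Gsta3* read 375, 516, 423, 511 and 376 CPM in WT and 745, 818, 939.7, 888 and 477 CPM in KO livers on CDA-HFD. KO liver 5 lay within the WT range, and the other 4 KO livers were all above it. The log2 fold change was 0.81 (SE 0.18, adjusted p = 0.0203), or 0.94 (SE 0.14, adjusted p = 0.000566) without KO liver 5. On WD, *Gsta3* read 677, 773, 1218, 1015 and 790.1 CPM in WT and 865, 954, 968, 1000.3 and 927 CPM in KO livers, and the KO livers all lay inside the WT range. The other alpha-class genes did not pass on CDA-HFD: *Gsta2* had 0.49 (adjusted p = 0.0646), *Gsta4*, which conjugates the lipid peroxidation product hydroxynonenal, had 0.26 (adjusted p = 0.31), and *Gsta1* had 0.04 (adjusted p = 0.926).

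Of the mu class, *Gstm1* and *Gstm4* rose in KO livers on CDA-HFD. *Gstm1* read 623, 710.1, 770.0, 711 and 668 CPM in WT and 1237, 1169.8, 861, 1126 and 770.1 CPM in KO livers on CDA-HFD, with KO liver 5 only just above the highest WT liver. Its log2 fold change was 0.57 (SE 0.15, adjusted p = 0.0316), or 0.65 (SE 0.13, adjusted p = 0.00278) without KO liver 5. On WD, *Gstm1* read 1197, 1304, 983, 1272 and 1349 CPM in WT and 1174, 893, 1069, 646 and 875 CPM in KO livers, where the KO livers leaned lower and the groups overlapped. *Gstm4* read 26.7, 29.6, 29.7, 26.3 and 24.2 CPM in WT and 57.7, 47.1, 43.2, 31.0 and 31.7 CPM in KO livers on CDA-HFD, and 52.9, 57.5, 56.7, 69.3 and 58.1 against 49.4, 45.6, 73.6, 40.3 and 51.1 CPM on WD. The CDA-HFD groups did not overlap, with a log2 fold change of 0.62 (SE 0.16, adjusted p = 0.031), or 0.71 (SE 0.15, adjusted p = 0.0038) without KO liver 5. *Gstm6* and *Gstm7* had 0.38 (adjusted p = 0.0626) and 0.37 (adjusted p = 0.0749), and passed without KO liver 5, at 0.40 (adjusted p = 0.0322) and 0.42 (adjusted p = 0.0225). *Gstm2* and *Gstm3* had -0.03 (adjusted p = 0.931) and 0.31 (adjusted p = 0.337), and *Gstm5* had the lowest value of the members at -0.46 (adjusted p = 0.0746), or -0.61 (adjusted p = 0.00293) without KO liver 5.

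In the other classes, *Gstp1*, the pi-class GST that conjugates the reactive metabolite of acetaminophen, read 98.7 to 124 CPM in WT and 107 to 214 CPM in KO livers on CDA-HFD, which overlapped, with a log2 fold change of 0.56 (SE 0.17, adjusted p = 0.0441) that passed in 1 of 10 fits with 1 liver left out. *Gstk1*, the kappa-class enzyme of mitochondria and peroxisomes, had 0.66 (adjusted p = 0.0526), *Gstz1*, which isomerizes maleylacetoacetate in tyrosine breakdown, had 0.53 (adjusted p = 0.13), and *Gsto1*, an omega-class thiol transferase, had 0.23 (adjusted p = 0.386). Without KO liver 5 these 3 passed, at 0.80 (adjusted p = 0.0025), 0.68 (adjusted p = 0.0101) and 0.37 (adjusted p = 0.0283). *Gstp2* and *Gstp3* had -0.40 (adjusted p = 0.414) and 0.01 (adjusted p = 0.974).

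Of the SULTs, *Sult1d1*, which sulfates catecholamines, and *Sult1b1*, which sulfates thyroid hormones, rose in KO livers on CDA-HFD. *Sult1d1* read 99.2, 96.4, 85.3, 103 and 96.0 CPM in WT and 142, 87.0, 159.7, 153 and 164 CPM in KO livers on CDA-HFD. Here KO liver 2 was the one inside the WT range and KO liver 5 was the highest. The log2 fold change was 0.55 (SE 0.15, adjusted p = 0.0365), or 0.49 (SE 0.15, adjusted p = 0.0242) without KO liver 5. *Sult1d1* on WD read 104, 136, 271, 162 and 97.8 CPM in WT and 118, 105, 74.3, 170.4 and 180.3 CPM in KO livers, which overlapped. *Sult1b1* read 8.37, 16.6, 12.1, 12.5 and 9.38 CPM in WT and 18.5, 12.6, 27.6, 25.2 and 16.5 CPM in KO livers on CDA-HFD, and 12.4, 16.6, 34.4, 27.7 and 17.1 against 12.5, 18.1, 12.9, 40.1 and 25.4 CPM on WD. Its groups overlapped on both diets, and the log2 fold change on CDA-HFD was 0.77 (SE 0.24, adjusted p = 0.049), or 0.83 (SE 0.24, adjusted p = 0.0169) without KO liver 5.

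*Sult5a1*, a low-level gene whose substrates are poorly known, spread widely between livers of 1 group. On CDA-HFD it read 0.437, 4.09, 0.994, 4.89 and 1.71 CPM in WT and 9.59, 8.52, 18.5, 14.9 and 1.41 CPM in KO livers. KO livers 1 to 4 were above all WT livers and KO liver 5 was below 3 of them. The log2 fold change was 2.13 (SE 0.68, adjusted p = 0.0538), which did not pass, and without KO liver 5 it was 2.43 (SE 0.50, adjusted p = 0.00317). *Sult2a8* read 24.6, 178, 61.3, 147 and 37.3 CPM in WT and 214, 232, 335, 470.3 and 100.3 CPM in KO livers on CDA-HFD, and 161, 177, 546, 371 and 221 against 142, 487, 225, 833 and 525 CPM on WD. Its spread within a group was several-fold, and its log2 fold change on CDA-HFD was 1.59 (SE 0.56, adjusted p = 0.0721), or 1.80 (SE 0.51, adjusted p = 0.0163) without KO liver 5. *Sult1a1* read 116, 144, 133, 153 and 139.6 CPM in WT and 173, 139.8, 240.4, 178 and 177 CPM in KO livers on CDA-HFD, and 126, 148, 229.9, 179.9 and 119 against 101, 100.2, 134, 166 and 189.6 CPM on WD. The groups overlapped, with a log2 fold change of 0.40 (SE 0.14, adjusted p = 0.0645) on CDA-HFD, or 0.41 (SE 0.14, adjusted p = 0.0392) without KO liver 5. *Sult1e1*, the estrogen sulfotransferase, had 0.80 (SE 0.83, adjusted p = 0.517) on CDA-HFD, and *Sult1c2* had 0.01 (adjusted p = 0.986).

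**Figure D2:**
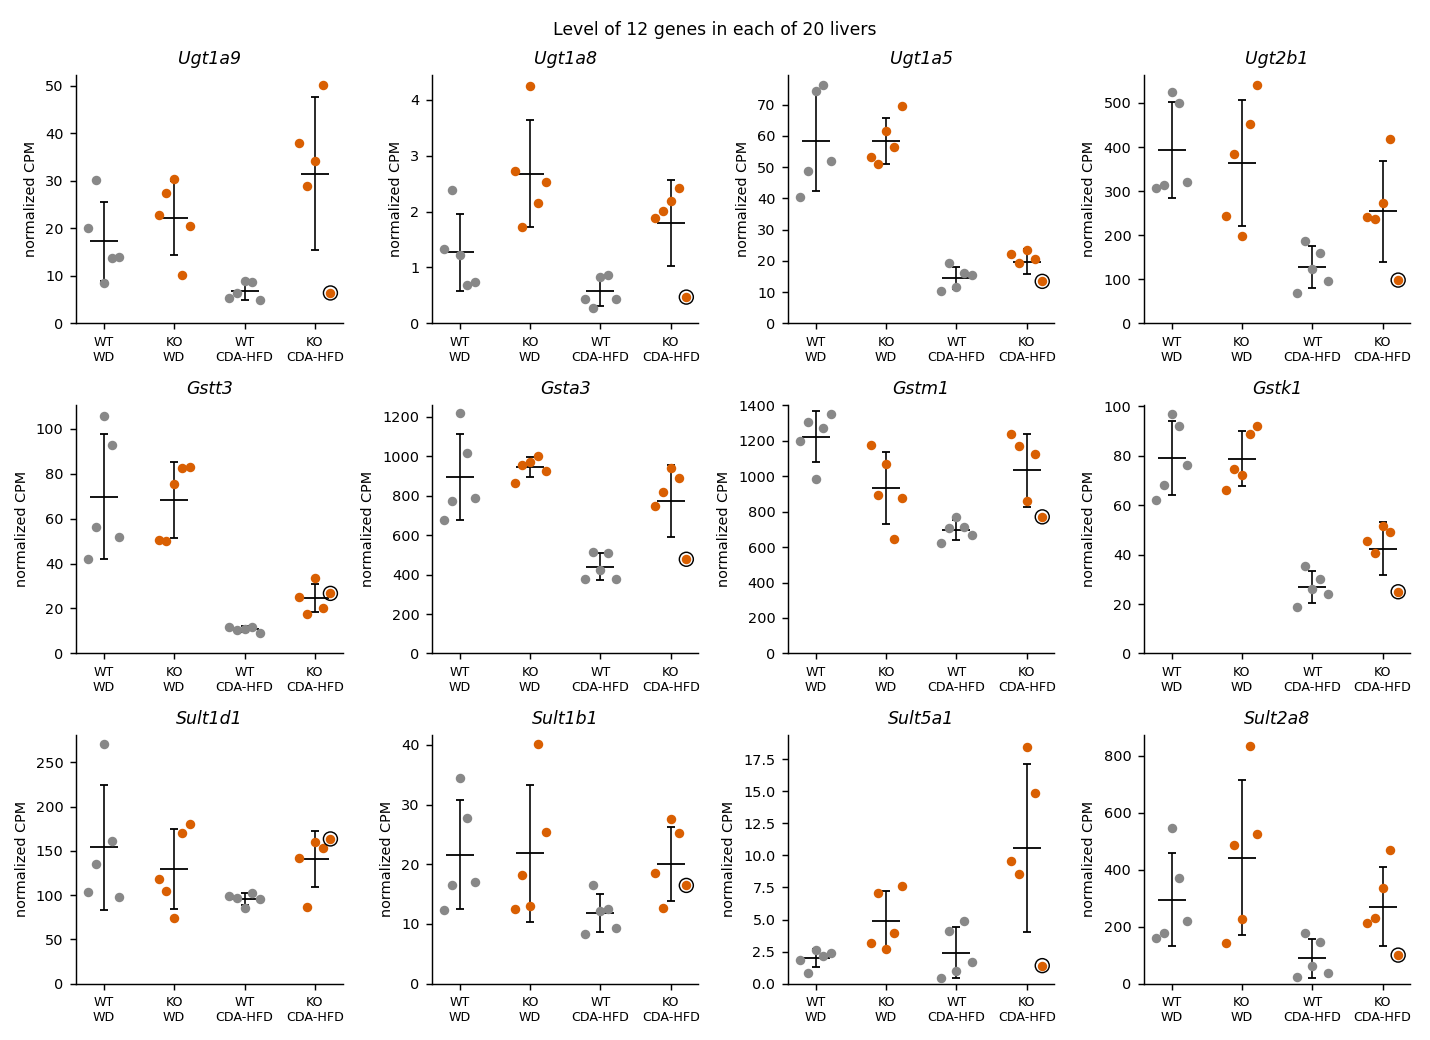
Normalized CPM (y axis) of 12 members in each of the 20 livers, by group (x axis, 5 livers each, in the order of their numbers), WT in grey and KO in orange, with the mean and SD as black bars and KO liver 5 on CDA-HFD circled. In *Ugt1a9* that liver lies at 6.39 CPM among the WT livers while the other 4 KO livers lie at 28.8 to 50.1 CPM, and in *Gstt3* all 5 KO livers on CDA-HFD lie above the WT livers.

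On WD, no member passed the threshold between KO and WT livers. Of 46 members tested, 0 rose and 0 fell in edgeR's test, where 0.0126% of 15848 genes rose and 0.0631% fell. At an unadjusted p under 0.05 there were 3 members higher and 4 lower in KO, 7 of 46, against 10.7% of all genes in either direction. DESeq2 called 1 member, *Sult5a1*, and 162 of all 15848 genes. The median log2 fold change was 0.01 over the members and 0.01 over all genes, and 23 members had a positive and 23 a negative value. *Sult5a1* read 1.88, 0.854, 2.59, 2.17 and 2.42 CPM in WT and 3.18, 7.07, 2.68, 3.92 and 7.65 CPM in KO livers on WD. It was the 1 member whose groups did not overlap, and 1.18% of all genes were higher in KO without overlap. Its log2 fold change was 1.30 (SE 0.35, adjusted p = 0.248) in edgeR. The exact permutation p of 0.00794, the smallest possible, follows from the lack of overlap and adds no support.

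The 95% intervals of the log2 fold change on WD, from its SE, ran from -0.21 to 0.36 for *Gsta3*, from -0.27 to 0.14 for *Ugt2b36* and from -0.20 to 0.39 for *Ugt1a1*. *Gstm1* ran from -0.69 to -0.09. Genes of few reads had wide intervals, such as *Gsta1* from -3.04 to -0.53. *Gsta1* read 2.35, 1.62, 0.533, 1.38 and 2.42 CPM in WT and 0.818, 0.157, 1.39, 0.0769 and 0.0788 CPM in KO livers on WD, with a log2 fold change of -1.78 (SE 0.64, adjusted p = 0.35). On CDA-HFD it read 2.31, 2.40, 2.65, 1.94 and 4.76 CPM in WT and 3.64, 3.66, 1.92, 2.87 and 2.52 CPM in KO livers. The WD values leaned lower in KO and the CDA-HFD values overlapped, and most of its sequence is shared with another gene.

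In WT livers, most members were lower on CDA-HFD than on WD. Of 45 members tested, 26 fell and 3 rose on CDA-HFD, where 25.2% of 16726 genes fell and 25.9% rose. They were 12 of 18 UGTs, 10 of 20 GSTs and 4 of 7 SULTs, and the members that rose were *Ugt1a7c*, *Gstm5* and *Gstp2*. The median log2 fold change was -0.72 over the members and 0.00 over all genes. When libraries were scaled by their totals alone, the median of all genes moved to 0.42 and the split of member calls from 26 lower and 3 higher to 19 lower and 9 higher. These comparisons use the same WT livers on CDA-HFD, and the same WT livers on WD, as the comparisons between genotypes, so the directions are not independent.

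*Gstt3* had the lowest value of the 45 members tested: its levels lay between 42.2 and 106 CPM on WD and between 9.0 and 11.9 CPM on CDA-HFD, and its log2 fold change was -2.68 (SE 0.24, adjusted p = 1.49e-05). *Ugt1a5* read 40.3, 48.8, 74.4, 76.3 and 52.0 CPM in WT livers on WD and 10.2, 19.2, 11.8, 16 and 15.4 CPM on CDA-HFD, and 53.1, 50.9, 61.6, 56.4 and 69.4 and 22.2, 19.2, 23.4, 20.6 and 13.4 CPM in KO livers. The diets did not overlap in either genotype, and the log2 fold change in WT livers was -2.01 (SE 0.21, adjusted p = 3.14e-05). *Gstk1* read 62.2, 68.2, 96.7, 92.0 and 76.3 CPM in WT livers on WD and 18.6, 35.5, 26.0, 30.2 and 24.1 CPM on CDA-HFD, and 66.2, 74.8, 72.2, 88.6 and 92.1 and 45.5, 40.8, 51.7, 49.3 and 25 CPM in KO livers. Again the diets did not overlap in either genotype, with -1.56 (SE 0.17, adjusted p = 3.99e-05) in WT livers. *Gstm4* fell by 1.11 on the log2 scale (adjusted p = 9.01e-06), the smallest adjusted p among members in this comparison, and *Gstm1*, *Gsta3* and *Gstz1* had -0.81 (adjusted p = 0.000189), -1.02 (adjusted p = 0.000468) and -1.12 (adjusted p = 0.000261).

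Among the other UGTs, *Ugt2b1* read 307, 313, 526, 499 and 322 CPM in WT livers on WD and 69.5, 187, 124, 159 and 96.2 CPM on CDA-HFD, and 244, 384, 198, 451 and 541 and 241, 236, 274, 419 and 98.0 CPM in KO livers. The WT livers did not overlap between diets, with a log2 fold change of -1.63 (SE 0.26, adjusted p = 0.000389). *Ugt1a6b* read 49.7, 55.0, 56.0, 56.3 and 54.0 CPM in WT livers on WD and 20.7, 40.5, 28.2, 35.7 and 25 CPM on CDA-HFD, and 55.7, 61.4, 43.4, 52.0 and 52.1 and 49.3, 47.2, 49.2, 53.6 and 30.8 CPM in KO livers. WT livers again did not overlap, with -0.86 (SE 0.16, adjusted p = 0.000792), while 4 KO livers on CDA-HFD lay inside the range of KO livers on WD. *Ugt2a3*, *Ugt1a9*, *Ugt1a8* and *Ugt1a1* fell too, at -1.40 (adjusted p = 0.000952), -1.34 (adjusted p = 0.00373), -1.15 (adjusted p = 0.0309) and -0.78 (adjusted p = 0.00446). *Ugt2b34*, the UGT with the most reads, had -0.29 (adjusted p = 0.0679) and *Ugt2b35* had -0.02 (adjusted p = 0.909), and neither passed. *Ugt1a7c* rose by 0.89 on the log2 scale (adjusted p = 0.0229) and read 1.30 to 3.93 CPM on WD and 3.17 to 6.25 CPM on CDA-HFD, which overlapped.

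Of the SULTs, *Sult1c2* read 6.35, 6.15, 5.87, 6.41 and 3.45 CPM in WT livers on WD and 2.44, 3.38, 3.09, 3.82 and 3.33 CPM on CDA-HFD, and 5.45, 5.18, 4.44, 5.93 and 5.67 and 3.78, 2.52, 4.64, 3.61 and 1.70 CPM in KO livers. In WT livers only WD liver 5 reached the CDA-HFD range, and the log2 fold change was -0.81 (SE 0.19, adjusted p = 0.00415). *Sult2a8*, *Sult1b1* and *Sult1d1* fell at -1.72 (adjusted p = 0.0185), -0.88 (adjusted p = 0.0176) and -0.68 (adjusted p = 0.0288), and *Sult1a1* had -0.23 (adjusted p = 0.267). *Sult2a7* had too few counts to be tested within the 10 WT livers: its level was 0.706 to 3.50 CPM on WD and 0 to 0.221 CPM on CDA-HFD, where 2 libraries had 0 counts. In the fit of all 20 libraries its log2 fold change was -4.50 (adjusted p = 5.70e-05), but it met the count rule for members only through livers on WD, so its direction between diets was fixed by that rule. The members that rose were led by *Gstp2* at 1.92 (adjusted p = 0.00206) and *Gstm5* at 1.00 (adjusted p = 0.000701), genes of few reads at 1.90 to 6.96 and 9.05 to 11.6 CPM on CDA-HFD. Beside these changes, the hepatocyte markers had a median of -0.78 with 1 of 20 higher and 11 lower, and markers of stellate cells, macrophages and cholangiocytes had medians of 1.47, 1.23 and 2.75. The part of cell content in the diet differences was not tested.

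**Figure D3:**
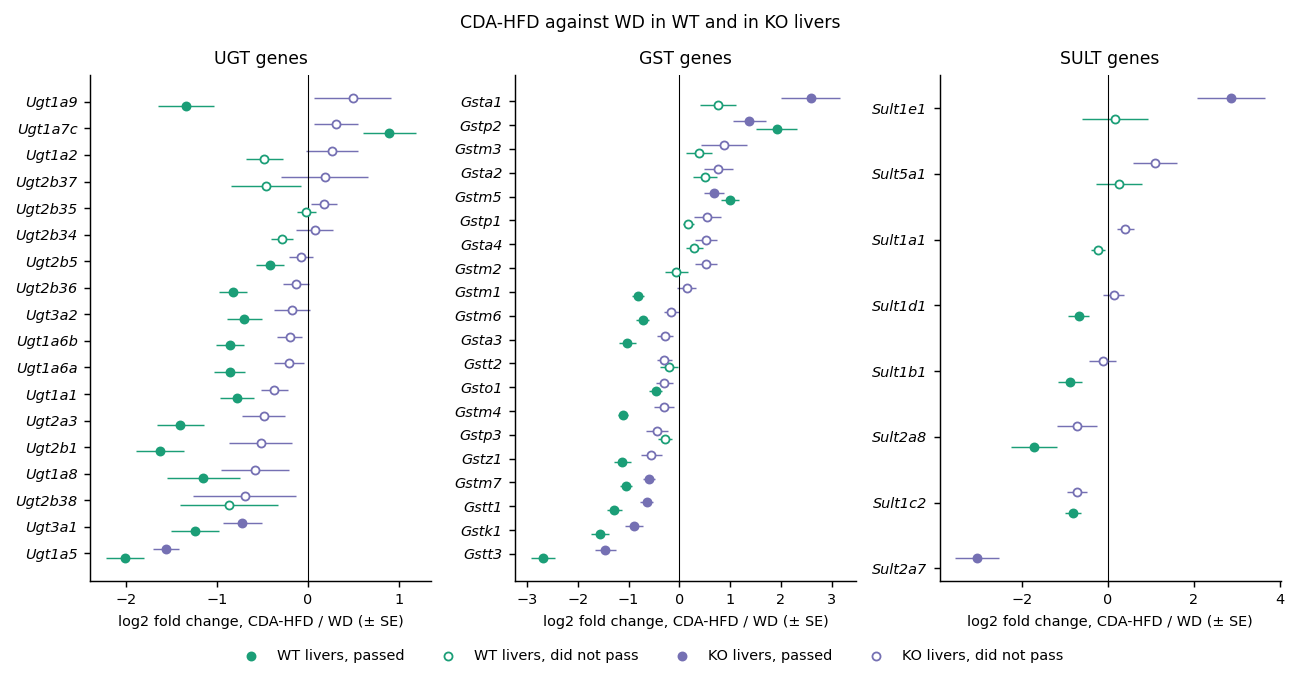
Log2 fold change of CDA-HFD against WD (x axis, bars ± SE from edgeR) for each member (y axis) in WT livers (green) and in KO livers (purple), with filled points for members past an adjusted p of 0.05. In WT livers 26 filled points lie left of 0 and 3 right of it, and in KO livers 7 lie left and 4 right. *Sult2a7* has no green point because it was not tested in WT livers.

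In KO livers, 11 members passed between diets, and whether this differs from WT livers is the interaction given further on. Of 46 members tested, 7 fell and 4 rose on CDA-HFD, where 7.85% of 16387 genes fell and 9.19% rose, and without KO liver 5, 7 fell and 5 rose (8.37% and 9.03% of 16555 genes). With scaling by library totals alone, the median of all genes moved to 0.25, 7 members were lower and 8 higher, and the median over the members turned from -0.17 to 0.07. The members that fell were *Ugt1a5* at -1.56 (adjusted p = 8.36e-05), *Gstt3* at -1.46 (adjusted p = 0.00117), *Gstk1* at -0.89 (adjusted p = 0.0061), *Gstt1* at -0.64 (adjusted p = 0.00802), *Gstm7* at -0.60 (adjusted p = 0.00703), *Ugt3a1* at -0.72 (adjusted p = 0.0416) and *Sult2a7* at -3.04 (adjusted p = 0.00329), the last of which had 10 counts only in livers on WD, so that the rule for members fixed its direction. *Gsta1*, *Sult1e1*, *Gstp2* and *Gstm5* rose, at 2.58 (adjusted p = 0.0144), 2.87 (adjusted p = 0.0311), 1.38 (adjusted p = 0.0185) and 0.68 (adjusted p = 0.0358). *Sult1e1* varied widely, with 0 to 1.5 CPM in KO livers on WD and 0.505 to 9.02 CPM on CDA-HFD, the highest being KO liver 5. *Gstm1*, *Gsta3*, *Ugt1a9* and *Ugt2b36*, which fell in WT livers, had 0.15 (adjusted p = 0.62), -0.28 (adjusted p = 0.242), 0.49 (adjusted p = 0.448) and -0.13 (adjusted p = 0.577) in KO livers.

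UGT members summed to 3009 ± 401 CPM (SD, n = 5) in WT and 3030.2 ± 455 CPM in KO livers on WD, and to 1848 ± 396 and 2670.4 ± 684 CPM on CDA-HFD. GST members summed to 3586 ± 294 and 3307 ± 178 CPM on WD, and to 2069.5 ± 158 and 3063 ± 416 CPM on CDA-HFD. SULT members summed to 643 ± 285 and 745 ± 347 CPM on WD, and to 342 ± 85.7 and 631 ± 177 CPM on CDA-HFD. In each family WT livers on CDA-HFD had the lowest mean. The GST sums on CDA-HFD were 1892, 2226, 2155, 2168 and 1906 CPM in WT and 3330.3, 3243, 3164, 3249.9 and 2325 CPM in KO livers, and all 5 KO livers stood above all WT livers. The UGT sum of KO liver 5 was 1709 CPM, inside the WT range of 1388 to 2297 CPM. A few abundant genes made up each sum, with *Gstm1* and *Gsta3* at a median of 33.0% and 24.4% of the GST sum over the 20 livers, and *Sult2a8* at 41.3% of the SULT sum.

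**Figure D4:**
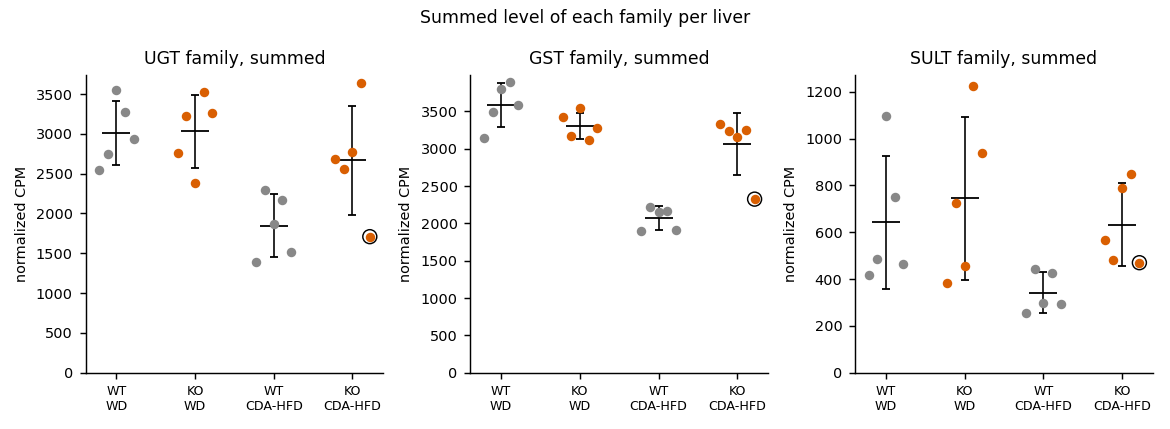
Summed normalized CPM (y axis, from 0) of the UGT, GST and SULT members in each liver, by group (x axis, 5 livers each), WT in grey and KO in orange, with the mean and SD in black and KO liver 5 on CDA-HFD circled. The WT livers on CDA-HFD have the lowest mean in each family, 1848 CPM for UGT, 2069.5 for GST and 342 for SULT.

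Whether the KO difference itself depended on the diet was tested by the interaction term over all 20 livers. With all livers, 0 of 46 members passed in edgeR's test, where 0.331% of 17804 genes had a higher and 0.225% a lower KO effect on CDA-HFD. At an unadjusted p under 0.05 there were 18 members (6 UGTs, 9 GSTs and 3 SULTs), each with a KO effect higher on CDA-HFD, against 9.88% of all genes. DESeq2 called 4 members, *Gstm1*, *Gstm4*, *Gstt3* and *Ugt1a9*, and 427 of all 17804 genes. *Gstm1* came closest in edgeR, with an interaction of 0.96 (SE 0.22, adjusted p = 0.0534). Leaving out KO liver 1 or 3 on WD gave 1 member call each, *Gstm1* in 1 of these fits and *Gstm4* in the other. In these fits, 54 of 18153 and 88 of 18161 genes were called. *Ugt1a9* had 1.83 (SE 0.57, adjusted p = 0.147) and *Sult1a1* 0.63 (SE 0.27, adjusted p = 0.272). Without KO liver 5 on CDA-HFD, 13 members passed, 6 UGTs and 7 GSTs, each with a KO effect higher on CDA-HFD, where 6.17% of 17995 genes were higher and 5.71% lower. They included *Gstm1* at 1.04 (adjusted p = 0.00593), *Ugt1a9* at 2.10 (adjusted p = 0.00675), *Gsta3* at 0.87 (adjusted p = 0.0121), *Ugt1a6b* at 0.77 (adjusted p = 0.0165) and *Gstt3* at 1.18 (adjusted p = 0.0314). *Sult5a1* and *Ugt1a8*, whose log2 fold changes were positive on both diets, had an interaction of 0.84 (adjusted p = 0.645) and 0.57 (adjusted p = 0.659).

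The genes that supply the conjugating enzymes were counted in the same fits. For these and the lists that follow, 8.19% of all genes were higher and 7.29% lower in KO livers on CDA-HFD. Without KO liver 5 the shares were 19.6% and 21.8%. Between diets in WT livers, 25.9% were higher and 25.2% lower on CDA-HFD. The lists are short and were not tested as sets, and counts near these shares are no result about a list. Of the genes for UDP-glucuronic acid supply, 1 of 8 was higher and 1 lower in KO livers on CDA-HFD (median log2 fold change 0.22), and 4 higher and 1 lower without KO liver 5. *Pgm1* rose at 0.66 (adjusted p = 0.0401) and *Pgm2*, which also interconverts sugar phosphates, fell at -0.68 (adjusted p = 0.035). Of glutathione synthesis and recycling genes, 5 of 19 were higher and 1 lower (median 0.52; 9 higher and 2 lower without KO liver 5). They were the transferase *Ggt6* at 0.73 (adjusted p = 0.00927), the oxoprolinase *Oplah* at 0.98 (adjusted p = 0.0121), and *Cth*, *Gnmt* and *Ahcy* of methionine and cysteine metabolism, while the cystine transporter *Slc7a11* fell. Of genes for PAPS synthesis and sulfate handling, 4 of 12 were higher and 2 lower (median 0.54; 6 higher and 3 lower without KO liver 5). The sulfite oxidase *Suox* had 1.09 (adjusted p = 0.00915) and the cysteine dioxygenase *Cdo1* 0.55 (adjusted p = 0.0281), the PAPS synthase *Papss2* and the rhodanese *Tst* rose with them, and the transporters *Slc35b3* and *Slc26a2* fell. In WT livers on CDA-HFD against WD, 1 of 8 was higher and 5 lower for glucuronic acid, 2 of 19 were higher and 9 lower for glutathione and 0 of 12 were higher and 5 lower for sulfate.

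Of other conjugating and related enzymes, a list that also holds epoxide hydrolases and other oxidation enzymes, 5 of 20 were higher and 0 lower in KO livers on CDA-HFD (median 0.60; 14 higher and 0 lower without KO liver 5). Over all genes, 8.19% were higher and 7.29% lower, or 19.6% and 21.8% without KO liver 5. Those that rose were the glycine methyltransferase *Gnmt* at 1.11 (adjusted p = 0.0285), the aldehyde dehydrogenase *Aldh1a1* at 0.79 (adjusted p = 0.0266), the acyl-CoA synthetase *Acsm1* and the epoxide hydrolases *Ephx1* and *Ephx2*. Of deconjugating enzymes, 4 of 13 were higher and 1 lower (9 higher and 1 lower without KO liver 5), where 4 carboxylesterases, among them *Ces1f* at 1.42 (adjusted p = 0.0281), rose and *Gusb*, the lysosomal glucuronidase, fell at -0.78 (adjusted p = 0.0266). Of conjugate exporters and organic anion importers, 5 of 17 were higher and 1 lower (8 higher and 5 lower without KO liver 5). *Slco2b1* at 0.93 (adjusted p = 0.0121), *Abcc6* at 1.02 (adjusted p = 0.0183), *Abcc3* and *Abcb11* were among those that rose, and *Abcc1* fell. Of membrane-bound and other glutathione transferases, 0 of 8 were higher and 2 lower (0 higher and 2 lower without KO liver 5), namely *Hpgds*, a prostaglandin D synthase of immune cells, at -1.55 (adjusted p = 0.0171) and *Clic1*, a chloride channel protein, at -0.89 (adjusted p = 0.0251). In WT livers on CDA-HFD against WD, 1 of 20 was higher and 17 lower in the list of other conjugating enzymes, 1 of 13 was higher and 9 lower among deconjugating enzymes, 4 of 17 were higher and 10 lower among transporters and 4 of 8 were higher and 1 lower among the other glutathione transferases.

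Of the sensing receptors and liver transcription factors, 10 of 20 were higher and 1 lower in KO livers on CDA-HFD (median 0.63), and 15 higher and 1 lower without KO liver 5. The shares over all genes were 8.19% higher and 7.29% lower, or 19.6% and 21.8% without KO liver 5. *Foxa2* had 1.61 (adjusted p = 0.00733) and *Nr1i2*, which encodes PXR, 0.61 (adjusted p = 0.0142). *Nr1i3* (CAR), *Hnf4a*, *Cebpa*, *Foxa1*, *Onecut1*, *Keap1* and *Por* were among the others that rose, and *Nfe2l2*, which encodes NRF2, fell. In WT livers, CDA-HFD against WD gave 0 of 20 higher and 15 lower (median -0.69). Known targets of these factors outside the members were counted by factor. Of PXR and CAR targets, 4 of 14 were higher and 0 lower (7 higher and 1 lower without KO liver 5) in KO livers on CDA-HFD, among them *Por*, the P450 reductase, at 0.89 (adjusted p = 0.0171) and the exporter *Abcc3* at 0.59 (adjusted p = 0.0213). Of AHR targets, 1 of 5 was higher and 1 lower (1 higher and 2 lower without KO liver 5): *Cyp1a2*, also a pericentral gene, rose at 1.17 (adjusted p = 0.00923) and *Tiparp* fell at -0.59 (adjusted p = 0.0304). Of NRF2 targets, 1 of 19 was higher and 4 lower (2 higher and 7 lower without KO liver 5): *Ephx1* rose, while *Hmox1* at -1.22 (adjusted p = 0.00158), *G6pdx* at -1.17 (adjusted p = 0.0182), *Slc7a11* and *Prdx1* fell. In WT livers on CDA-HFD against WD, 8 of 19 were higher and 5 lower of NRF2 targets, 1 of 15 was higher and 10 lower of PXR and CAR targets and 4 of 5 were higher and 0 lower of AHR targets. Several genes stand in more than 1 list.

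Genes known to differ between male and female liver were counted because several members are known to. Between genotypes on CDA-HFD, 8.19% of all genes were higher and 7.29% lower, or 19.6% and 21.8% without KO liver 5. Of male-biased genes outside the members, 5 of 16 were higher and 0 lower in KO livers on CDA-HFD (median 1.20; 15 higher and 0 lower of 18 without KO liver 5), among them *Elovl3* at 2.07 (adjusted p = 0.00461) and *Cyp2d9* at 1.62 (adjusted p = 0.01), and 0 of 16 were higher and 11 lower in WT livers on CDA-HFD against WD (median -1.58). Of female-biased genes, 2 of 15 were higher and 0 lower (5 higher and 2 lower without KO liver 5) between genotypes on CDA-HFD, *Cyp2b9* at 2.65 (adjusted p = 0.0234) and *Cyp4a10* at 1.67 (adjusted p = 0.042), and 3 of 15 were higher and 7 lower between diets in WT livers. Of *Xist* and the 4 Y-linked genes, 0 of 5 were higher and 0 lower between genotypes on CDA-HFD and 1, *Ddx3y*, was lower between diets in WT livers, at -0.41 (adjusted p = 0.0152).

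Cell type markers were counted beside the members on CDA-HFD, where 8.19% of all genes were higher and 7.29% lower in KO livers. Without KO liver 5 the shares were 19.6% higher and 21.8% lower. Of pericentral hepatocyte markers, 5 of 13 were higher and 0 lower in KO livers (median 0.74; 8 higher and 0 lower without KO liver 5), and of periportal markers, 3 of 14 were higher and 1 lower (median 0.89; 8 higher and 1 lower without KO liver 5). Of macrophage markers, 0 of 24 were higher and 12 lower (2 higher and 19 lower without KO liver 5), and of stellate cell markers, 0 of 19 were higher and 6 lower (0 higher and 15 lower without KO liver 5). Cholangiocyte markers had 1 of 15 higher (*Onecut1*, also a hepatocyte factor) and 0 lower with all livers, with a median of -0.84. Without KO liver 5 there were 1 higher and 11 lower (median -1.63). Endothelial markers had 1 of 18 higher and 0 lower (*Wnt2*), but 12 higher and 1 lower without that liver. Lymphocyte markers had 1 of 18 higher and 0 lower (*Gzmb*), and 1 higher and 2 lower without it. The summed macrophage markers ran from 3482 to 6538 CPM in WT and 1207 to 4191 CPM in KO livers on CDA-HFD, and KO liver 5 held the highest KO value, 4191 CPM. On WD, 0 genes of these cell type, sex and pathway lists passed between genotypes in edgeR's test.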

How the data were processed

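Liver RNA was sequenced by the study as single-end reads of 75 bases, and the authors deposited 1 table of raw read counts per gene symbol for 20 libraries (mm10, per the labels). The aligner, the counting program, its version and its strand setting are not given in the sources used here. The labels name a directional library kit and the methods another kit, so whether strand was kept is unclear. The table ends in 5 tally rows, which were left out of library sizes. Reads placed at more than 1 site were 18.0% to 28.7% of all reads tallied and are not counted to any gene, so members with near-identical copies are under-counted. All columns were matched to labelled livers.

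From these counts, edgeR (4.0.16, R 4.3.3) quasi-likelihood tests with TMM factors and filterByExpr were fitted on the whole table within the 10 livers of each comparison, and on all 20 for the interaction of diet and genotype. Adjusted p-values are Benjamini-Hochberg over all genes tested, with a threshold of 0.05, and the SE is the absolute log2 fold change over the square root of F. Exact permutation tests used all 252 splits of 5 livers against 5 on log2(CPM + 0.5) and cannot go below 0.00794. Each library held 11697049 to 16827147 gene reads, and the SE rests on the spread between the 5 livers of a group as well as on counting noise. The labels do not say whether the 5 libraries of a group are separate mice, so p-values measure the spread between these samples, which may be technical. No 2 libraries of a group agreed within counting noise (chi-square per gene at least 6.94). Same-numbered livers of the groups compared correlated at -0.367 to 0.350, so the numbers were not taken to pair livers. The script was tested on simulated data.

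Members and lists were chosen with earlier results of these data known. Values in every liver are given, per family, for the 4 members with the smallest adjusted p between genotypes on CDA-HFD, 1 on WD, 3 between diets in WT livers, 1 for the interaction, and the 2 highest per length. From the lists, up to 2 genes are named with values, and further names were chosen after their values were seen. Alternatives were RLE factors, library totals, DESeq2 (1.42.0), other count filters, a block on the replicate number, a fit of all 20 libraries and leaving out each library. Sequence uniqueness and positions came from GENCODE M21 (GRCm38), and promoters from RefSeq (GRCm38.p6). Some genes of the lists, and 1 promoter motif, are not reported here by name.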

Additional observations from a re-analysis of the deposited data

Results flagged for a closer look

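In 84 groups of 5 livers, over the members given liver by liver, the gap between the highest or lowest liver and its nearest neighbour, divided by the range of the group, was compared with the critical value of 0.71. It was passed in 6 groups, where chance passes about 5%, or 4.2 groups. KO liver 5 on CDA-HFD stood below the other 4 KO livers in *Ugt1a8*, at 0.469 CPM against 1.89 to 2.43 CPM (0.725 of the range), and in *Ugt1a6b*, at 30.8 CPM against 47.2 to 53.6 CPM (0.719). KO liver 2 on CDA-HFD stood below the others in *Sult1d1*, at 87.0 CPM against 142 to 164 CPM (0.718). WT liver 5 on CDA-HFD stood above the others in *Gsta1*, at 4.76 CPM against 1.94 to 2.65 CPM (0.749). WT liver 5 on WD stood below the others in *Sult1c2*, at 3.45 CPM against 5.87 to 6.41 CPM (0.817). KO liver 4 on WD stood above the others in *Ugt1a1*, at 377 CPM against 262 to 292 CPM (0.738). No explanation was tested for any of them.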

How the results depend on the processing

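No member changed direction under any alternative in the comparisons where it passed or was named by rule, whereas the median over the members between diets in KO livers turned from -0.17 to 0.07 with library totals alone. Between genotypes on CDA-HFD, the 12 calls became 5 with library totals alone, 22 with DESeq2 (21 higher, 1 lower), 20 with all 20 libraries in 1 fit, and 2 to 31 with 1 library left out, and the cause was not tested. Calls over all genes moved too, from 2664 of 17204 to 1709 of 17204, 4140 of 17204 and 4170 of 17804. With 1 library left out they were 709 to 7201. On WD the count was 0 except for 1 with DESeq2, which called 162 of 15848 genes. Between diets in KO livers, the 11 calls became 7 when 10 counts were required in every library, which removes low members. Calls over all genes went from 2792 of 16387 to 2326 of 14182 with that filter. For the interaction, 0 calls became 4 with DESeq2 (427 of 17804 genes) and 0 to 13 with 1 library left out (35 to 2138 genes). Between diets in WT livers, counts stayed between 26 and 32. Library totals alone moved the median of all genes by -0.19 between genotypes on CDA-HFD, where the median over the members was then 0.35. With the replicate number as a block, the counts of calls were 0 on WD, 14 between genotypes on CDA-HFD, 28 and 12 between diets in WT and KO livers and 0 for the interaction, and since the numbers share no more than a label, this pairing is not used. Low members such as *Gsta1*, *Sult1e1* and *Sult2a7* are limited by depth.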
